A study of Mus musculus with 18 samples.

Results

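Risperidone was compared with vehicle in astrocytes of the mouse frontal cortex, and genes were sought that differed the same way in both batches. The comparison rests on 4 of the 18 libraries of the study, namely the 2 risperidone and the 2 vehicle libraries of the astrocyte fraction, with batch 1 and batch 2 in each group. Mice of the line B6;D2-Tg(S100B-EGFP)1Wjt/J, which carries EGFP under the S100B promoter, received risperidone at 1 mg/kg, clozapine at 10 mg/kg or vehicle in daily intraperitoneal injections between postnatal days 60 and 74, and tissue was taken on day 75. The transgene and the daily injections were common to all groups, vehicle included. Each library came from a pool of 5 frontal cortices, so n = 2 pools per group, and one label field gives male and female mice where another gives adult males. Astrocytes were the last cells taken in a panning sequence: endothelial cells were depleted, CD45 captured microglia, the oligodendrocyte lineage was depleted, Thy1 captured neurons and HepaCAM captured astrocytes. The fraction is therefore an enrichment and not a pure culture. In such bulk RNA, fewer cells of a type and less RNA per cell cannot be told apart.

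Risperidone is an antipsychotic that blocks serotonin 5-HT2A and dopamine D2 receptors and also binds alpha-adrenergic and histamine H1 receptors. Astrocytes clear glutamate and potassium, supply lactate and cholesterol to neurons, and respond to injury or inflammation with a reactive programme in which Gfap and Serpina3n are classical genes. They carry G protein-coupled receptors of several of the families that antipsychotics bind.

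The protein-coding genes with a log2 difference of at least 1 in both batches and a mean of at least 10 CPM (gene counts scaled to a common library total) were Hbb-bt, Clca3a1, Vtn, Serpina3n, Angptl4 and Cxcl10. Their promoters are shown because these are the annotated proteins that met this rule, although only Clca3a1 passed the test. RefSeq sequences on GRCm38.p6, from 250 bases before to 50 bases after the start, were given for 5 of the 6, all but Angptl4. Capitals mark matches, on either strand, to GAAA, any 2 bases and GAAA again (a pattern of interferon response elements), TTCNNNGAA (a pattern bound by STAT factors) or TATAAA (the TATA box).
Hbb-bt, chr7:103813874-103814173, minus strand: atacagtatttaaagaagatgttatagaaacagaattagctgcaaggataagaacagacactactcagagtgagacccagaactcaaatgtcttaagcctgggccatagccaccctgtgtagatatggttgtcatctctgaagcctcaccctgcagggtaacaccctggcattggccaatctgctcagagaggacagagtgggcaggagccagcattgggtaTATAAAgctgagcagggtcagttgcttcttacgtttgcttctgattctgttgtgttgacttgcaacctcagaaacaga
Clca3a1, chr3:144760928-144761227, minus strand: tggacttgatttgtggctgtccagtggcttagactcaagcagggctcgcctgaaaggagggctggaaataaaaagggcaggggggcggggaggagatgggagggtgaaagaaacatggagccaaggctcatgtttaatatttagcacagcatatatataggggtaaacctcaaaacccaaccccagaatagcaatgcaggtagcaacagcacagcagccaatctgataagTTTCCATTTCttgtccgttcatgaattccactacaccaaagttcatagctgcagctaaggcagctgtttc
Vtn, chr11:78498870-78499169, plus strand: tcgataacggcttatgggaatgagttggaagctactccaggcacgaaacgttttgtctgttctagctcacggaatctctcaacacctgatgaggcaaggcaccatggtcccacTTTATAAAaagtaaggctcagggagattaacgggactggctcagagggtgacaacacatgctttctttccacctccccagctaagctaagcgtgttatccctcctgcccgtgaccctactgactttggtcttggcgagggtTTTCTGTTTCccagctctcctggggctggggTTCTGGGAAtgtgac
Serpina3n, chr12:104406458-104406757, plus strand: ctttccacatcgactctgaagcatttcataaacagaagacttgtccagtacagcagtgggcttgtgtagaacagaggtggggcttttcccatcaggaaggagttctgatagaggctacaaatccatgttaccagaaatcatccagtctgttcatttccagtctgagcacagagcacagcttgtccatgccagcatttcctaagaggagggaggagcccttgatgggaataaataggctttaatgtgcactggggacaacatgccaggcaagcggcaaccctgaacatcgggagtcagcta
Cxcl10, chr5:92348840-92349139, minus strand: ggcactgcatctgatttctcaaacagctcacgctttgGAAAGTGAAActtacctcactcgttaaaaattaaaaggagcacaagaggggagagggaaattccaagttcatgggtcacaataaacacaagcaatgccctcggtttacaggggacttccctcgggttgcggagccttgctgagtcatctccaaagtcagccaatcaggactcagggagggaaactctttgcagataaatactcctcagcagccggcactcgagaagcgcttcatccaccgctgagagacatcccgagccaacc
The paired GAAA pattern lay at -20 to -11 from the start of Clca3a1, at 5 to 14 in Vtn and at -213 to -204 in Cxcl10, and 3.44% of all 32851 promoters of this length hold it. TTCNNNGAA lay at 36 to 44 in Vtn and is found in 8.30% of promoters. TATAAA lay at -28 to -23 in Hbb-bt and, on both strands with overlap, between -137 and -130 in Vtn, and 13.6% of promoters hold it. No match to these letters was found in the Serpina3n window. These matches describe the letters and were not tested for binding.

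The astrocyte libraries held 10651230 and 4714468 assigned counts with risperidone and 6321981 and 5118064 with vehicle (batch 1 and batch 2, the order used throughout). Genes with a count numbered 37984 and 47580 with risperidone and 41825 and 48200 with vehicle. The deepest of the 4 libraries, risperidone of batch 1, thus detected the fewest genes. The part of this in the batch 1 differences was not tested. Astrocyte markers were abundant in all 4: the glutamate transporter gene Slc1a2 stood at 10167 and 6859 CPM with risperidone and at 7422 and 6899 CPM with vehicle. The 20 astrocyte markers summed to 31550 and 15420 CPM with risperidone and to 20310 and 15220 CPM with vehicle. RNA of other cells was present too. Oligodendrocyte markers summed to 49620 and 12620 CPM with risperidone and to 35760 and 9800 CPM with vehicle, and pan-neuronal markers to 9009 and 3816 CPM with risperidone and 9570 and 3925 CPM with vehicle. Microglia markers stood at 1265 and 1529 CPM with risperidone and at 706 and 1852 CPM with vehicle, and the endothelial gene Cldn5 was between 1.39 and 4.55 CPM. The risperidone and vehicle libraries resembled each other more by batch than by treatment: the correlation of log2 CPM across genes was 0.949 between risperidone and vehicle in batch 2 and 0.928 in batch 1, against 0.888 between the risperidone libraries and 0.902 between the vehicle libraries. The clozapine libraries, which share the fit, correlated at 0.940 with each other, and that of batch 2 at 0.928 with risperidone and 0.928 with vehicle of its batch. Genes are not independent replicates, and these values only describe the libraries.

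**Figure D1:**
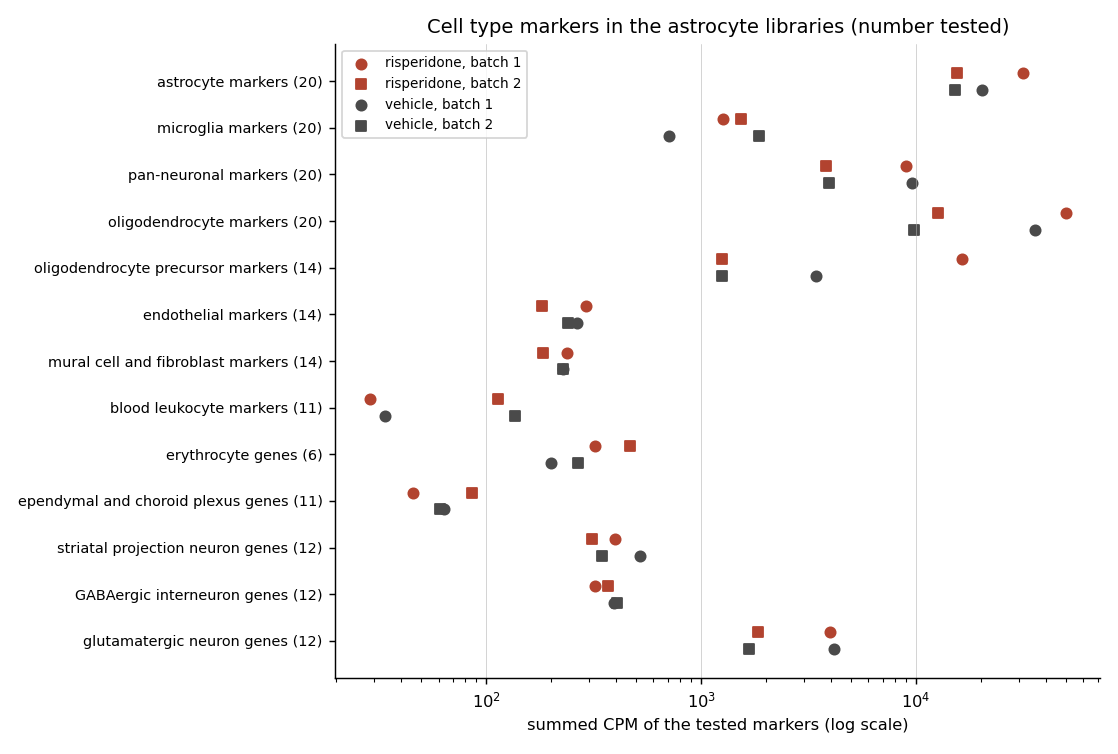
Summed CPM (x axis, log scale) of the tested markers of each cell type (y axis, number tested in brackets) in the 4 astrocyte libraries, risperidone above vehicle, circles for batch 1 and squares for batch 2. Batch 1 lies above batch 2 for neuronal and oligodendrocyte markers in both groups, and microglia markers are lowest in vehicle of batch 1 at 706 CPM.

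Of 31022 genes tested with the batch as a block, 4 passed an adjusted p of 0.05, which is 0.0129% of the genes tested. The 3 that rose with risperidone (0.00967%) and the 1 that fell (0.00322%) did so in both batches. They represent 3 loci, because the 70 bases of ENSMUSG00002075625.1 (chr6:69493465-69493534) lie wholly inside the exon of Rn7s6 and the authors' counting assigned overlapping reads to both. At an unadjusted p of 0.05, 727 genes passed, fewer than that threshold would let through if no gene differed. Tested on simulated data of this layout, the fit recovered 88% of genes changed 4-fold and 18% of genes changed 2-fold, so smaller differences were mostly out of its reach. The changed genes were drawn only from the more abundant genes, with the same fold in both batches. Recovery among genes of low counts was therefore not measured.

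Clca3a1, a member of the calcium-activated chloride channel regulator family (ENSMUSG00000056025.13, chr3:144435438-144466738, minus strand, GRCm39), fell. It stood at 1.72 and 4.25 CPM with risperidone and at 41.7 and 10.9 CPM with vehicle. Both risperidone libraries lay below both vehicle libraries, and the vehicle pool of batch 1 was far above that of batch 2. The log2 difference was -3.16 (SE 0.50, adjusted p = 0.00299), made up of -4.38 in batch 1 and -1.30 in batch 2. Without the vehicle library of batch 1 it was -1.43 with an adjusted p of 1, and without the risperidone library of batch 1 it was -2.28 with an adjusted p of 0.188. Over 12 alternative fits the adjusted p ranged up to 1, with 8 of the 12 calling the gene and every log2 difference negative, between -4.49 and -1.43. The 7 other tested Clca genes lay between 0.123 and 6.29 CPM, and none was called. Of its exon bases, 4.36% are shared with Gm34866 on the other strand. Clca3a1 is also known from endothelial cells, whose 14 tested markers summed to 291 and 181 CPM with risperidone and to 264 and 241 CPM with vehicle. Their part in the difference was not tested.

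Gm47518, a long intergenic RNA with no assigned role (ENSMUSG00000113716.2, chr12:69161788-69167121, minus strand), rose. It stood at 8.00 and 37.9 CPM with risperidone and at 0.872 and 4.10 CPM with vehicle. Batch 2 was higher than batch 1 in both groups, and within each batch risperidone was the higher library, by 2.84 and 3.12 on the log2 scale. The fitted difference was 3.12 (SE 0.51, adjusted p = 0.00299). It was called in 7 of 12 alternative fits, with log2 differences between 2.39 and 3.67 and adjusted p up to 1. The calls were lost without the vehicle library of batch 1 (adjusted p = 1) or of batch 2 (adjusted p = 0.107), and without the risperidone library of batch 2 (adjusted p = 0.207).

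Rn7s6, a 7S RNA gene of the family that encodes the RNA of the signal recognition particle (ENSMUSG00000092746.5, chr6:69493323-69493613, plus strand), rose. It stood at 235 and 125 CPM with risperidone and at 42.5 and 49.4 CPM with vehicle, with no overlap between the groups. The log2 difference was 1.84 (SE 0.36, adjusted p = 0.0417), with 2.46 in batch 1 and 1.33 in batch 2. The nested ENSMUSG00002075625.1 shared these reads and stood at 225 and 111 CPM with risperidone and at 38.7 and 45.1 CPM with vehicle. Rn7s6 was called in 7 of 12 alternative fits, with log2 differences from 1.25 to 2.55 and adjusted p up to 1. Leaving out either vehicle library or the risperidone library of batch 1 ended the call (adjusted p of 1, 0.342 and 0.188). 7S genes have near-identical copies in the genome, so their read assignment is uncertain.

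Other small non-coding RNAs of the same annotation class were read beside Rn7s6, a set chosen after its values were seen. Of 7 tested genes annotated as miscellaneous RNA, Rn7s6 included, 5 were higher with risperidone in both batches and none was lower in both, against 23.4% and 26.5% of all genes tested. Because Rn7s6 prompted the set and is counted in the 5, this count cannot test a trend of the class. Also in the 5 were Gm24812, at 3.82 and 1.70 CPM with risperidone and 0.174 and 1.58 CPM with vehicle, and Gm24514. The latter stood at 3.32 and 2.72 CPM with risperidone and at 1.57 and 1.26 CPM with vehicle. Gm26461, of similar length to Rn7s6 (chr9:88435289-88435578), stood at 697 and 602 CPM with risperidone and at 324 and 172 CPM with vehicle, a log2 difference of 1.47 (SE 0.38, adjusted p = 0.578). The Y RNA gene Rny1, by contrast, stood at 113 and 15.5 CPM with risperidone and at 71.0 and 27.6 CPM with vehicle, with opposite signs in the batches. Rny3 stood at 58.6 and 45.5 CPM with risperidone and at 57.9 and 36.1 CPM with vehicle. Only Rn7s6 of the 7 was called.

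**Figure D2:**
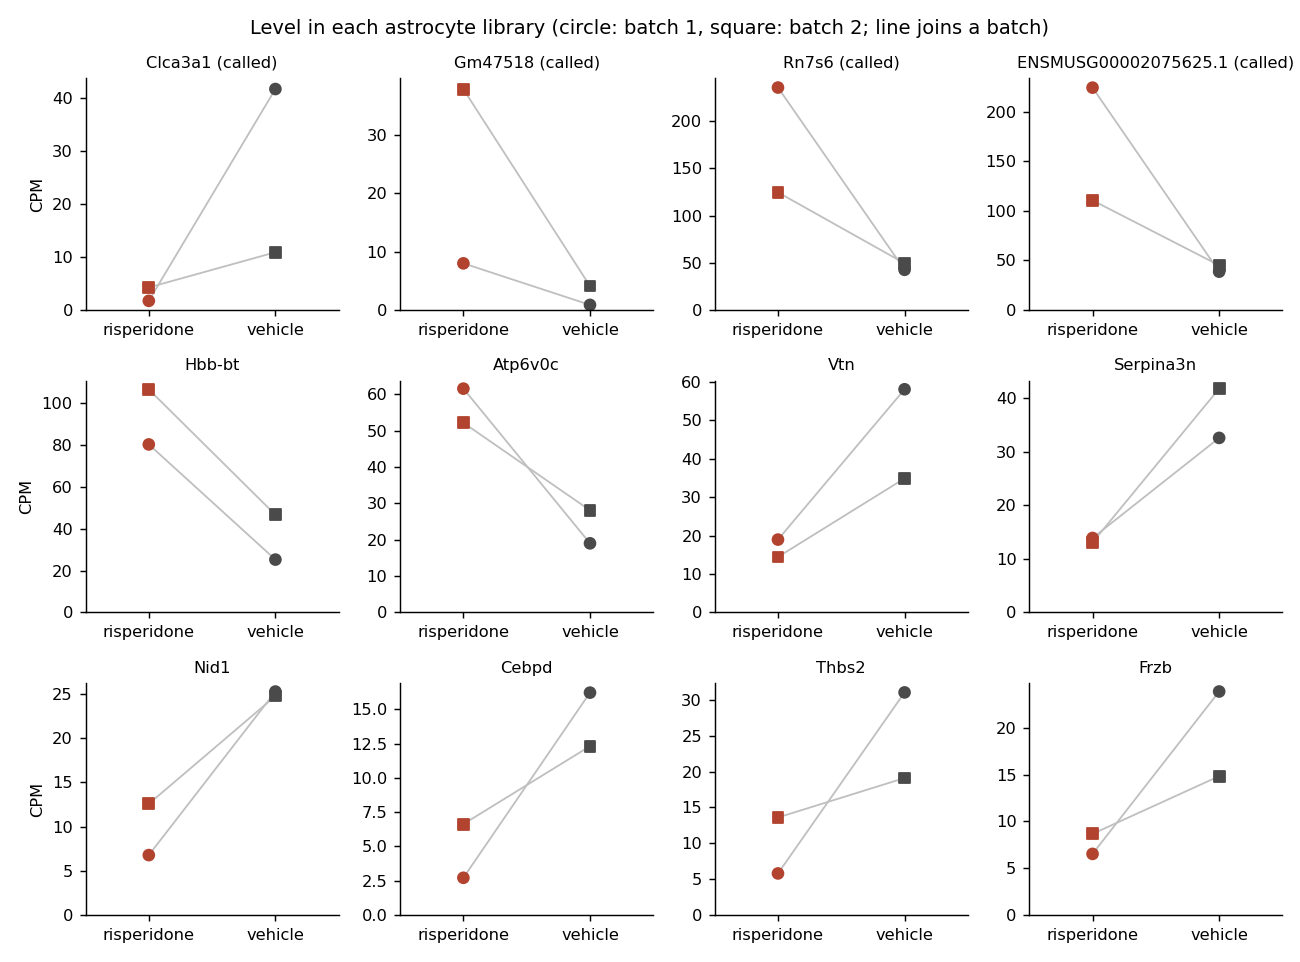
CPM (y axis, linear from 0, scaled per panel) of 12 genes in the risperidone and vehicle astrocyte libraries, circles for batch 1, squares for batch 2, lines joining the libraries of a batch. In every panel shown, both lines slope the same way and the groups do not overlap, with Clca3a1 at 1.72 and 4.25 CPM with risperidone against 41.7 and 10.9 CPM with vehicle. Over genes of at least 10 CPM the groups were separate for 10.8% with risperidone above and for 5.06% with it below.

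The number of calls depended on which libraries entered the fit. Without the block for batch no gene passed (edgeR, 200 at an unadjusted p of 0.05), and DESeq2 with the block called 5. The 200 too are fewer than that threshold would let through if no gene differed. The count was 0 without the vehicle library of batch 1, 2 without that of batch 2, 3 without the risperidone library of batch 1 and 164 without that of batch 2, of which 132 were lower with risperidone. Leaving out the clozapine library of batch 1 gave 22 calls, leaving out that of batch 2 gave 31, and fitting the 4 risperidone and vehicle libraries alone gave 16. Fitting all 18 libraries together gave 0. The fit of the 4 libraries alone leaves only 1 residual degree of freedom.

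Across the transcriptome the within-batch differences were almost uncorrelated, and about as many genes differed in opposite directions as in the same direction. Of 31022 genes, 7249 were higher with risperidone in both batches (23.4%) and 8220 were lower in both (26.5%), so 49.9% had the same sign. Pearson's r between the within-batch differences, across genes, was 0.00652 and Spearman's rho was 0.0125, given as a description. Among the 12116 genes of at least 10 CPM, 31.9% were higher in both batches and 17.6% lower in both, and the median difference was 0.18 in batch 1 and -0.02 in batch 2. A log2 difference of at least 1 in the same direction in both batches was seen for 207 higher genes (0.667%) and 533 lower genes (1.72%). The opposite patterns, up in batch 1 and down in batch 2 or the reverse, held 182 and 520 genes. Among genes of at least 10 CPM the same-direction counts were 7 higher (0.0578%) and 6 lower (0.0495%), and the opposite counts were 5 and 1.

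**Figure D3:**
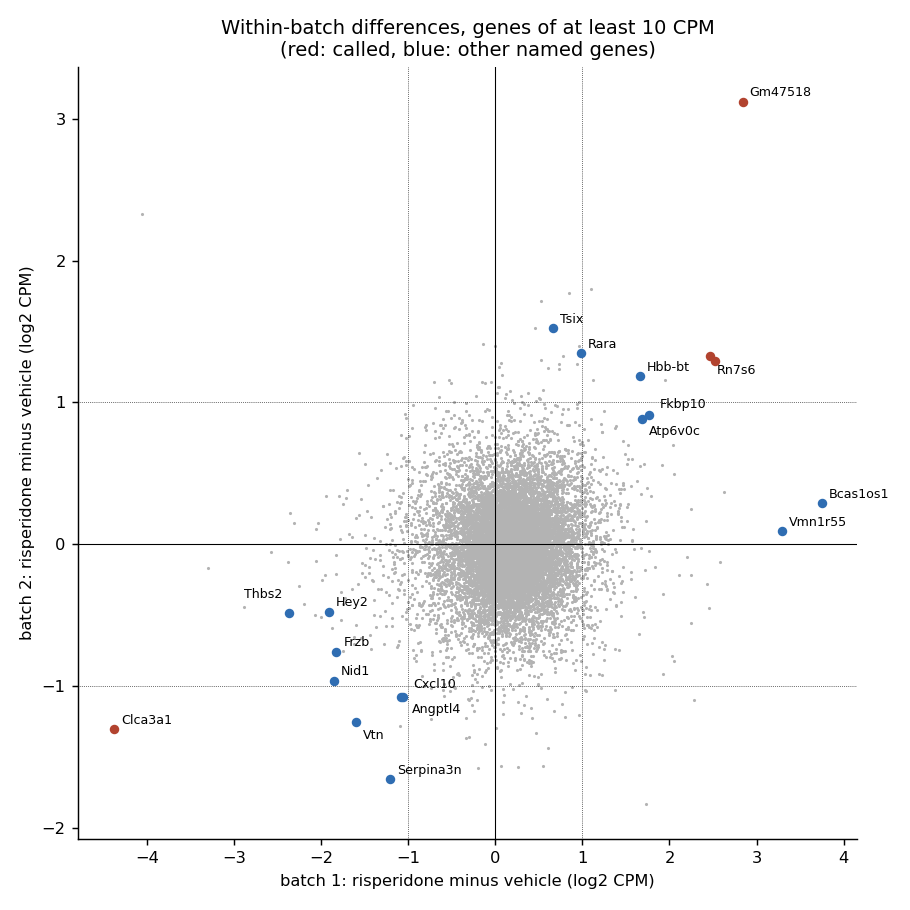
Log2 CPM difference, risperidone minus vehicle, in batch 1 (x axis) and batch 2 (y axis) for the 12116 genes of at least 10 CPM, with called genes in red, other named genes in blue and dotted lines at a difference of 1. Gm47518 and Rn7s6 stand in the upper right and Clca3a1 in the lower left, while Bcas1os1 and Vmn1r55 differ almost entirely in batch 1.

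The 7 higher genes comprised the 3 called ones, Hbb-bt, Gm26461, Gm42910 and ENSMUSG00000120091.1. Hbb-bt, a beta globin gene of red blood cells (chr7:103461731-103463203, minus strand), stood at 80.4 and 107 CPM with risperidone and at 25.3 and 46.7 CPM with vehicle. The groups did not overlap, as was the case for 10.8% of genes of at least 10 CPM with risperidone above vehicle. Its log2 difference of 1.41 (SE 0.32) had an adjusted p of 0.385, and over 12 alternatives the adjusted p ran between 3.12e-05 and 1, with 3 alternatives calling it and log2 differences of 1.15 to 1.70. The 6 tested erythrocyte genes summed to 320 and 468 CPM with risperidone and to 201 and 268 CPM with vehicle. Its neighbour Hbb-bs stood at 180 and 319 CPM with risperidone and at 123 and 183 CPM with vehicle, whereas Slc4a1, the red cell anion exchanger, stood at 2.58 and 9.85 CPM with risperidone and at 8.37 and 13.6 CPM with vehicle. The part of blood in the samples was not tested. Gm42910 stood at 79.0 and 9.85 CPM with risperidone and at 36.1 and 4.26 CPM with vehicle, so that batch 1 was higher in both groups.

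Among the other leading genes on the higher side, Atp6v0c, which encodes the proteolipid subunit of the vacuolar proton pump, stood at 61.5 and 52.1 CPM with risperidone and at 19.0 and 28.1 CPM with vehicle. Its groups did not overlap, and its log2 difference was 1.27 (SE 0.32, adjusted p = 0.544). Fkbp10, a collagen-folding prolyl isomerase of the endoplasmic reticulum, stood at 23.3 and 14.8 CPM with risperidone and at 6.63 and 7.73 CPM with vehicle. Rara, the retinoic acid receptor alpha, stood at 23.6 and 18.5 CPM with risperidone and at 11.9 and 7.10 CPM with vehicle. For these genes too the groups did not overlap, while the adjusted p was 1. They were picked for small p and the same sign in both batches, which favours separate groups. Over genes of at least 10 CPM, 10.8% had both risperidone libraries above both vehicle libraries. Bcas1os1 was different: it stood at 5971 and 81.5 CPM with risperidone and at 444 and 66.6 CPM with vehicle, so that nearly all of its difference lay in batch 1. It shares 35.5% of its exon bases with Bcas1 on the other strand, a gene of newly forming oligodendrocytes. Bcas1 stood at 15653 and 245 CPM with risperidone and at 2617 and 267 CPM with vehicle, and without a strand setting reads over the shared bases cannot be told apart. Vmn1r55, a vomeronasal receptor gene, stood at 344 and 19.9 CPM with risperidone and at 34.9 and 18.6 CPM with vehicle, again a difference of batch 1. Without the risperidone library of batch 1 its log2 difference was -0.53.

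The 6 lower genes were Clca3a1, Vtn, Serpina3n, Angptl4, Cxcl10 and Gm47590, a predicted gene with no assigned role at 12.4 and 4.25 CPM with risperidone and 26.8 and 10.7 CPM with vehicle. Vtn, which encodes vitronectin, an adhesive glycoprotein that in brain is a marker of pericytes (chr11:78389917-78393150, plus strand), stood at 19.0 and 14.4 CPM with risperidone and at 58.1 and 34.9 CPM with vehicle. Serpina3n, a secreted serine protease inhibitor of reactive astrocytes (chr12:104372988-104380588, plus strand), stood at 13.9 and 13.1 CPM with risperidone and at 32.6 and 41.8 CPM with vehicle. In each of these genes both risperidone libraries lay below both vehicle libraries, as they did for 5.06% of genes of at least 10 CPM. The log2 difference was -1.47 for Vtn (SE 0.35) and -1.42 for Serpina3n (SE 0.34), both with an adjusted p of 0.475. A fit of the 4 libraries alone leaves only 1 residual degree of freedom, so its p-values carry little weight. The 4 libraries alone gave an adjusted p of 0.00449 for Vtn and 0.0106 for Serpina3n, within ranges over 12 alternatives of 0.000257 to 1 and of 0.00162 to 1. Without the vehicle library of batch 1 the Vtn difference was -0.86, and without the risperidone library of batch 2 the Serpina3n difference was -0.94.

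Angptl4, an inhibitor of lipoprotein lipase (chr17:33992724-34000804, minus strand), stood at 11.6 and 6.96 CPM with risperidone and at 24.8 and 15.0 CPM with vehicle, and its difference was -1.08 in both batches. Cxcl10, an interferon-induced chemokine (chr5:92494497-92496748, minus strand), stood at 4.43 and 26.2 CPM with risperidone and at 9.59 and 55.5 CPM with vehicle. The groups of Cxcl10 overlapped across batches because batch 2 was the higher batch in both treatments, while within batches risperidone was lower by 1.07 and 1.08 on the log2 scale. Neither gene passed the adjusted test (adjusted p = 1 for both). Without the vehicle library of batch 2 the Cxcl10 difference was 0.00 on the log2 scale, and without the risperidone library of batch 2 it was -2.19 (adjusted p = 0.0218, in a range of 0.0218 to 1 over 12 alternatives).

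Further genes were among those of smallest p on the lower side, and none passed the adjusted test. Nid1, which encodes the basement membrane protein nidogen, stood at 6.77 and 12.6 CPM with risperidone and at 25.3 and 24.8 CPM with vehicle. Thbs2, a thrombospondin that in astrocytes promotes synapse formation, stood at 5.78 and 13.6 CPM with risperidone and at 31.0 and 19.1 CPM with vehicle. Frzb, a secreted Wnt antagonist, stood at 6.52 and 8.66 CPM with risperidone and at 23.9 and 14.8 CPM with vehicle. In all 3 genes the groups were separate, which their choice by small p favours. Risperidone lay wholly below vehicle in 5.06% of genes of at least 10 CPM. The adjusted p was 0.475 for Nid1, 0.548 for Thbs2 and 0.817 for Frzb. Cebpd, a transcription factor induced by inflammation, stood at 2.71 and 6.62 CPM with risperidone and at 16.2 and 12.3 CPM with vehicle (log2 difference -1.70, SE 0.42, adjusted p = 0.487), with 15.0% of its exon bases shared with Spidr on the other strand. Hey2, a Notch target, stood at 8.25 and 9.34 CPM with risperidone and at 31.9 and 13.1 CPM with vehicle. Mural cell and fibroblast markers, Vtn among them, summed to 238 and 184 CPM with risperidone and to 228 and 229 CPM with vehicle. Within that list 7 of 14 members were lower in both batches and none was higher in both, against 26.5% and 23.4% of all genes tested (32.2% and 17.9% below 10 CPM). Pdgfrb, a pericyte receptor of that list, stood at 89.7 and 43.5 CPM with risperidone and at 45.2 and 44.2 CPM with vehicle, a difference of 0.99 in batch 1 and -0.02 in batch 2. The part of vascular cells in these differences was not tested.

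Of the receptors that risperidone binds, Htr2a and Drd2 were at low levels, while Adra1a and Hrh1 stood higher. Htr2a, the serotonin 5-HT2A receptor, stood at 6.40 and 9.34 CPM with risperidone and at 12.2 and 13.3 CPM with vehicle. Htr2c, the 5-HT2C receptor, stood at 8.25 and 10.5 CPM with risperidone and at 17.1 and 15.3 CPM with vehicle. Both risperidone libraries lay below both vehicle libraries for each gene, as for 5.06% of genes of at least 10 CPM. The log2 differences were -0.70 (SE 0.40) and -0.80 (SE 0.36), with an adjusted p of 1. Of 12 tested serotonin receptor genes, 8 were lower with risperidone in both batches and 2, Htr4 and Htr6, were higher in both, against 26.5% and 23.4% of all genes. Only 5 of the 12 averaged at least 10 CPM, and below that level 32.2% of genes were lower and 17.9% higher in both batches. The median log2 difference of the list was -0.65 in batch 1 and -0.37 in batch 2, where the medians over all genes were -0.02 in each. For genes below 10 CPM the medians were -0.38 in batch 1 and -0.01 in batch 2. For genes of at least 10 CPM they were 0.18 and -0.02. None of the 12 was called. Htr6 stood at 16.5 and 12.9 CPM with risperidone and at 5.58 and 10.7 CPM with vehicle.

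Drd2, the dopamine D2 receptor, stood at 2.09 and 6.29 CPM with risperidone and at 5.06 and 8.68 CPM with vehicle, and the groups overlapped. Of the 12 genes for dopamine receptors and handling, 3 were higher in both batches and 4 lower, and none was called. Adra1a, the alpha-1A adrenergic receptor, was close to equal in the groups, with 35.7 and 29.2 CPM with risperidone and 30.2 and 27.8 CPM with vehicle. Adra2a, the alpha-2A adrenergic receptor, stood at 8.49 and 8.66 CPM with risperidone and at 12.9 and 13.9 CPM with vehicle. Its groups were separate, as for 5.06% of genes of at least 10 CPM with risperidone below vehicle. Its log2 difference was -0.64 (SE 0.39, adjusted p = 1). Of the 15 adrenergic, histamine and muscarinic receptor genes, 2 were higher in both batches and 5 lower, and none was called. Over all genes tested the shares were 23.4% higher and 26.5% lower in both batches. Hrh1, the histamine H1 receptor, stood at 23.8 and 16.6 CPM with risperidone and at 22.5 and 17.5 CPM with vehicle, a log2 difference of 0.00 with an SE of 0.33. Rgs2, a regulator that limits Gq signalling, stood at 22.9 and 26.8 CPM with risperidone and at 33.5 and 46.7 CPM with vehicle (log2 difference -0.68, SE 0.31, adjusted p = 1). These counts cannot say which cells of the fraction held the receptor RNA. Pan-neuronal markers were at similar sums in the groups within each batch. Of the 20, 9 were lower in both batches, against 17.6% of genes of at least 10 CPM. The part of neuronal RNA in the receptor values was not tested.

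Of 20 astrocyte markers, 8 were higher with risperidone in both batches, none was lower in both and none was called, with a median difference of 0.71 in batch 1 and -0.01 in batch 2. Among genes of at least 10 CPM 31.9% were higher and 17.6% lower in both batches, with medians of 0.18 and -0.02. Slc1a3, a glutamate transporter, stood at 5346 and 1576 CPM with risperidone and at 2678 and 1440 CPM with vehicle. Aqp4, the water channel of astrocyte end-feet, stood at 506 and 256 CPM with risperidone and at 365 and 294 CPM with vehicle, with opposite signs in the batches. S100b, the calcium-binding protein whose promoter drives EGFP in this line, stood at 435 and 154 CPM with risperidone and at 303 and 137 CPM with vehicle. Ntsr2, a neurotensin receptor of astrocytes, had the smallest p of the list and stood at 268 and 119 CPM with risperidone and at 118 and 103 CPM with vehicle (log2 difference 0.71, SE 0.34, adjusted p = 1). Of the 21 genes for handling of glutamate, GABA and potassium, 5 were higher in both batches and 1, Slc7a11, was lower in both.

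Reactive astrocyte genes gave no call in any of the 3 lists, where 0.0129% of all genes tested were called. Gfap, the intermediate filament that marks reactive astrocytes, stood at 148 and 117 CPM with risperidone and at 79.3 and 154 CPM with vehicle, so the batches had opposite signs. Of 13 pan-reactive genes, 2 were higher in both batches and 5 lower in both. Of 13 genes of the neurotoxic type 2 were higher and 5 lower, and of 12 of the protective type none was higher and 5 were lower. Over all genes tested 23.4% were higher and 26.5% lower in both batches, and below 10 CPM 17.9% and 32.2%. Osmr, the oncostatin M receptor, stood at 11.9 and 13.6 CPM with risperidone and at 21.6 and 19.6 CPM with vehicle. Its groups did not overlap, as for 5.06% of genes of at least 10 CPM with risperidone below vehicle. Most members of the protective-type list, such as Tgm1 at 0.738 and 4.59 CPM with risperidone and 6.10 and 7.73 CPM with vehicle, were at a few CPM.

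The 20 genes of inflammatory cytokines and NF-kB summed to 611 and 1733 CPM with risperidone and to 397 and 2444 CPM with vehicle, so the sums differed more between batches than between treatments. Ccl4, a macrophage chemokine, stood at 60.7 and 454 CPM with risperidone and at 12.6 and 665 CPM with vehicle, higher with risperidone in batch 1 and lower in batch 2. Of the 20 genes, 1 was higher in both batches and 4 were lower in both, against 23.4% and 26.5% of all genes tested. Among the 4 was Cxcl1, a neutrophil chemokine, at 2.71 and 5.10 CPM with risperidone and 8.37 and 9.31 CPM with vehicle. Microglia markers moved with these sums, being lowest in vehicle of batch 1 at 706 CPM and highest in vehicle of batch 2 at 1852 CPM. Their part in the cytokine values was not tested.

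Of 33 cytosolic ribosomal protein genes, which encode parts of the translation machinery, 26 were higher with risperidone in both batches and none was lower in both, against 31.9% and 17.6% of genes of at least 10 CPM. The median log2 difference was 0.68 in batch 1 and 0.10 in batch 2, so most of it lay in batch 1, and none of the 33 was called. Rps23 stood at 1092 and 224 CPM with risperidone and at 394 and 167 CPM with vehicle, a log2 difference of 0.97 (SE 0.39, adjusted p = 1). Rps14 stood at 138 and 47.7 CPM with risperidone and at 77.2 and 30.5 CPM with vehicle. Of 30 nuclear genes of oxidative phosphorylation, 20 were higher in both batches and 1, Ndufa9, was lower, with medians of 0.38 and 0.14. Ndufa2, a complex I subunit, stood at 65.7 and 25.1 CPM with risperidone and at 30.0 and 19.4 CPM with vehicle. In both lists batch 1 was higher than batch 2 within each treatment, and the groups overlapped across batches in the genes named. Mitochondrially encoded genes had no counts in these tables.

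Sterol and fatty acid synthesis genes under SREBP control gave 16 of 25 members higher in both batches and 2 lower, against 31.9% and 17.6% of genes of at least 10 CPM, a level that 24 of the 25 reached. The medians were 0.40 in batch 1 and 0.15 in batch 2, and none was called. Oligodendrocytes, which make much of the brain's sterol, had marker sums of 49620 and 12620 CPM with risperidone and 35760 and 9800 CPM with vehicle, with 4 of 20 markers higher in both batches and none lower in both. Their part in these values was not tested. Fdps, farnesyl diphosphate synthase of the mevalonate pathway, stood at 46.2 and 34.7 CPM with risperidone and at 26.3 and 21.6 CPM with vehicle. The groups of Fdps did not overlap, and its log2 difference was 0.75 (SE 0.31, adjusted p = 1). Over genes of at least 10 CPM the groups were separate for 10.8% with risperidone above and for 5.06% with it below. Dhcr7, the last enzyme of cholesterol synthesis, stood at 68.3 and 57.9 CPM with risperidone and at 39.9 and 48.1 CPM with vehicle. Fabp7, a fatty acid binding protein of astrocytes and radial glia, stood at 59.3 and 39.2 CPM with risperidone and at 161 and 65.6 CPM with vehicle, with separate groups and a log2 difference of -1.14 (SE 0.35, adjusted p = 1). Without the vehicle library of batch 1 the difference was -0.49, and over 12 alternatives it ran from -1.66 to -0.49 with adjusted p from 0.00675 to 1.

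**Figure D4:**
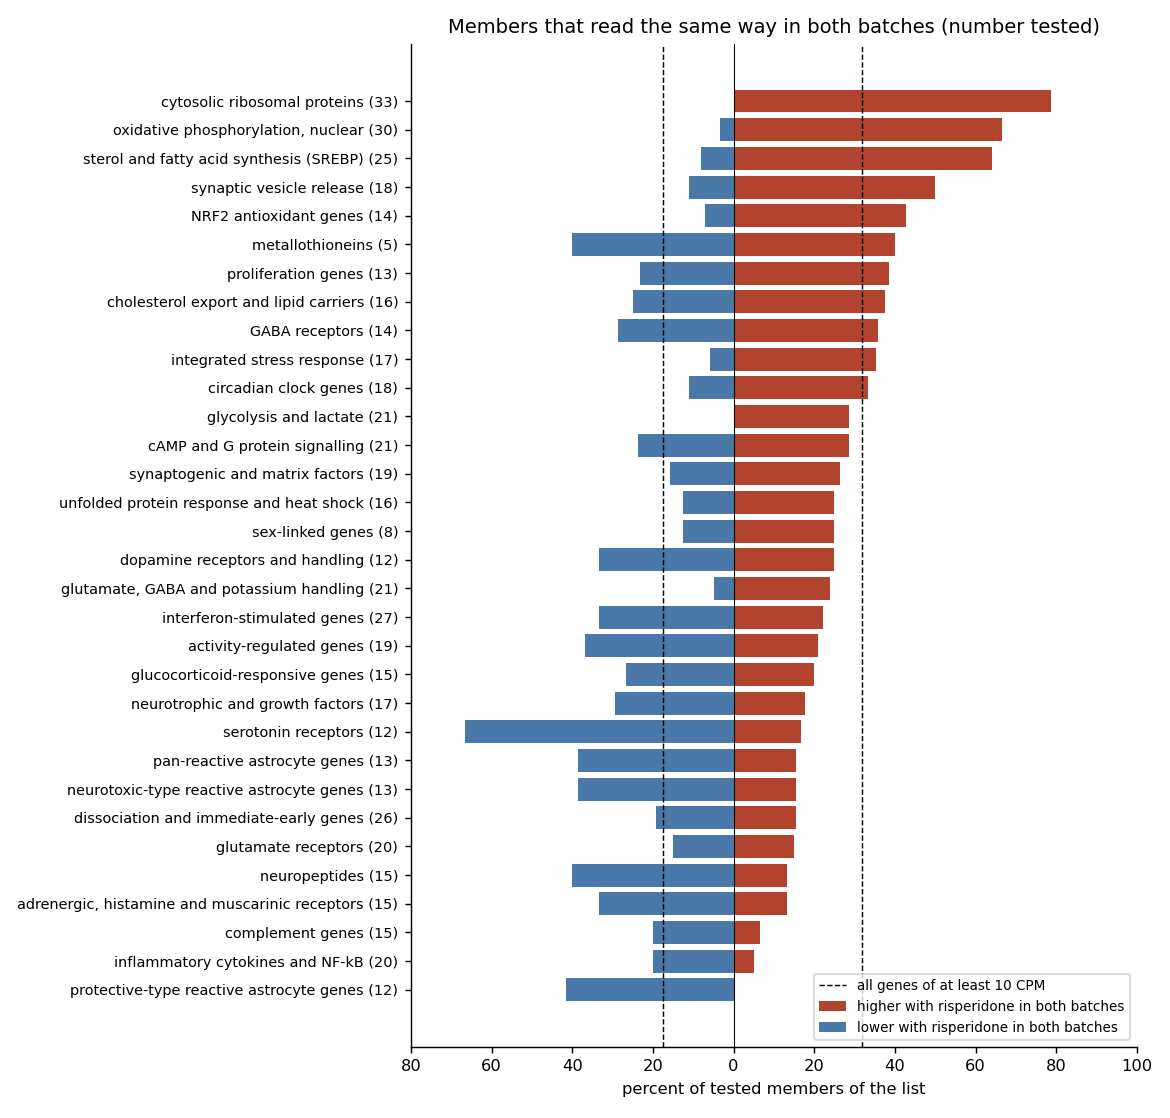
Percent of the tested members of each functional list (number tested in brackets) that were higher (red, to the right) or lower (blue, to the left) with risperidone in both batches, with dashed lines at the 31.9% and 17.6% of all genes of at least 10 CPM. Below 10 CPM, where 7 of the 12 serotonin receptors lie, 17.9% of genes were higher and 32.2% lower in both batches. Cytosolic ribosomal proteins, oxidative phosphorylation and sterol synthesis have the longest bars to the right and serotonin receptors the longest to the left.

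Of 15 neuropeptide genes, 6 were lower with risperidone in both batches and 2 were higher in both. Npy stood at 26.2 and 40.6 CPM with risperidone and at 77.1 and 64.4 CPM with vehicle (log2 difference -1.17, SE 0.34, adjusted p = 1). Its groups did not overlap, as for 5.06% of genes of at least 10 CPM with risperidone below vehicle. Penk, the enkephalin precursor, stood at 45.7 and 84.1 CPM with risperidone and at 88.7 and 95.5 CPM with vehicle. Of the 12 GABAergic interneuron genes, which include Npy, 4 were lower in both batches and 2 higher, and their sums were 322 and 367 CPM with risperidone and 394 and 405 CPM with vehicle. Of 12 striatal projection neuron genes 7 were lower in both batches and none higher, with sums of 398 and 312 CPM with risperidone and 518 and 345 CPM with vehicle. Drd1, Drd2, Gpr6 and Isl1 of that list lay below 10 CPM in all 4 libraries. Below 10 CPM 32.2% of genes were lower and 17.9% higher in both batches, against 26.5% and 23.4% of all genes tested. None of the neuropeptide, interneuron or striatal genes was called, and the part of neuronal RNA in these values was not tested.

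Metallothionein Mt1, a zinc and copper buffer of astrocytes, stood at 1414 and 909 CPM with risperidone and at 775 and 596 CPM with vehicle. The groups did not overlap, as for 10.8% of genes of at least 10 CPM with risperidone above vehicle. The log2 difference was 0.74 (SE 0.40, adjusted p = 1). In the same list Mt2 was also higher in both batches, Mt3 had opposite signs, and Slc30a1 and Slc39a14 were lower in both. Igf1, a growth factor, stood at 3.57 and 6.96 CPM with risperidone and at 13.1 and 10.6 CPM with vehicle, again with separate groups (log2 difference -1.24, SE 0.43, adjusted p = 1). Inhba, an activity-regulated activin subunit, stood at 14.0 and 8.32 CPM with risperidone and at 27.0 and 12.8 CPM with vehicle. Of 27 interferon-stimulated genes 6 were higher and 9 lower in both batches, and of 26 dissociation and immediate-early genes 4 were higher and 5 lower, against 23.4% and 26.5% of all genes tested. Across all 45 lists no member was called for risperidone against vehicle. Only 0.0129% of all 31022 genes tested were called, so an absence of calls in lists of this size says little about their genes.

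Xist, the RNA of the inactive X chromosome in females, stood at 434 and 432 CPM with risperidone and at 302 and 175 CPM with vehicle. Its antisense partner Tsix, with 32.6% of its exon bases shared with Xist, stood at 83.1 and 77.6 CPM with risperidone and at 52.5 and 26.8 CPM with vehicle. The Y-linked gene Ddx3y stood at 57.1 and 27.7 CPM with risperidone and at 51.3 and 42.9 CPM with vehicle. In batch 2, then, Xist was higher and Ddx3y lower with risperidone, whereas in batch 1 both were higher. Xist and Ddx3y RNA was found in all 4 libraries, sex was in no fit, and the sex balance of the pools cannot be told apart from the treatment within a batch.

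Risperidone was compared directly with clozapine, an antipsychotic of the dibenzodiazepine class where risperidone is a benzisoxazole. The doses were 1 and 10 mg/kg, so the comparison is of the regimens used and not of matched doses, and it is the only pair of drugs in the study. In the same fit 10 of 31022 genes were called (0.0322%), 4 higher and 6 lower with risperidone. At an unadjusted p of 0.05, 1144 passed, again fewer than that threshold would let through if no gene differed. Gm47518 stood at 8.00 and 37.9 CPM with risperidone and at 1.98 and 1.94 CPM with clozapine, a log2 difference of 3.22 (SE 0.52, adjusted p = 0.00465). Clca3a1 stood at 1.72 and 4.25 CPM with risperidone and at 14.6 and 28.1 CPM with clozapine, a log2 difference of -2.89 (SE 0.48, adjusted p = 0.00465). Without the clozapine library of batch 2 the Clca3a1 difference was -1.92, with an adjusted p of 0.132. The risperidone libraries, which both comparisons share, therefore stood apart from clozapine as well as from vehicle for these genes.

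Frzb was lower with risperidone, at 6.52 and 8.66 CPM against 22.7 and 35.3 CPM with clozapine (log2 difference -1.93, SE 0.36, adjusted p = 0.0204). Angptl4 was lower too, at 11.6 and 6.96 CPM against 26.6 and 34.2 CPM with clozapine (log2 difference -1.76, SE 0.35, adjusted p = 0.0404). Pqlc2, a lysosomal transporter of cationic amino acids, stood at 75.1 and 16.1 CPM with risperidone and at 338 and 52.7 CPM with clozapine, and Gng4, a G protein gamma subunit, at 17.5 and 6.96 CPM with risperidone and 33.2 and 59.6 CPM with clozapine. Gm42910 was also lower with risperidone than with clozapine, at 79.0 and 9.85 CPM against 156 and 72.9 CPM. In vehicle, Pqlc2 stood at 56.1 and 38.2 CPM, Gng4 at 20.7 and 16.1 CPM and Gm42910 at 36.1 and 4.26 CPM. Against vehicle the risperidone differences of these genes were -0.50, -0.60 and 1.13 on the log2 scale, and none was called. Against clozapine the difference was -1.66 for Vtn and -1.65 (SE 0.35) for Fabp7, each with an adjusted p of 0.0501, just outside the threshold. On the higher side were Plaur, the urokinase receptor, at 19.2 and 57.6 CPM with risperidone and 5.48 and 12.7 CPM with clozapine, and Tcirg1, a proton pump subunit of osteoclasts and immune cells, at 25.7 and 51.3 CPM with risperidone and 8.67 and 15.9 CPM with clozapine. Lilr4b, a myeloid receptor gene, was called although its differences were -0.14 in batch 1 and 3.59 in batch 2. In vehicle, Plaur stood at 5.93 and 89.3 CPM, so the risperidone library of batch 2 lay nearer to its vehicle partner than to clozapine. Microglia markers summed to 1265 and 1529 CPM with risperidone and to 1216 and 690 CPM with clozapine, and their part in the myeloid genes was not tested. The count of calls was 0 without the block, 5 with DESeq2, and between 7 and 662 when a library was left out, with 662 reached without the clozapine library of batch 1. Without the clozapine library of batch 2 every one of the 10 calls but that of Pqlc2 was lost, with log2 differences of 1.99 for Gm47518 (adjusted p = 0.546), -0.98 for Gm42910, -1.14 for Gng4 and -0.07 for Lilr4b. The calls of Gm47518, Pqlc2, Gm42910, Gng4, Angptl4 and Lilr4b were lost without the risperidone library of batch 2, with adjusted p from 0.062 for Pqlc2 to 0.747 for Lilr4b, and those of Frzb, Plaur and Tcirg1 without that of batch 1, from 0.105 to 0.369. Leaving out the vehicle library of batch 1 ended the calls of Tcirg1, Pqlc2, Gm42910, Angptl4 and Lilr4b, from 0.114 to 0.215, and leaving out that of batch 2 ended those of Tcirg1, Pqlc2 and Gm42910, from 0.105 to 0.120. Over 11 alternatives each gene's adjusted p reached 1, and between 4 (Tcirg1) and 7 (Clca3a1 and Gm47518) alternatives called it.

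**Figure D5:**
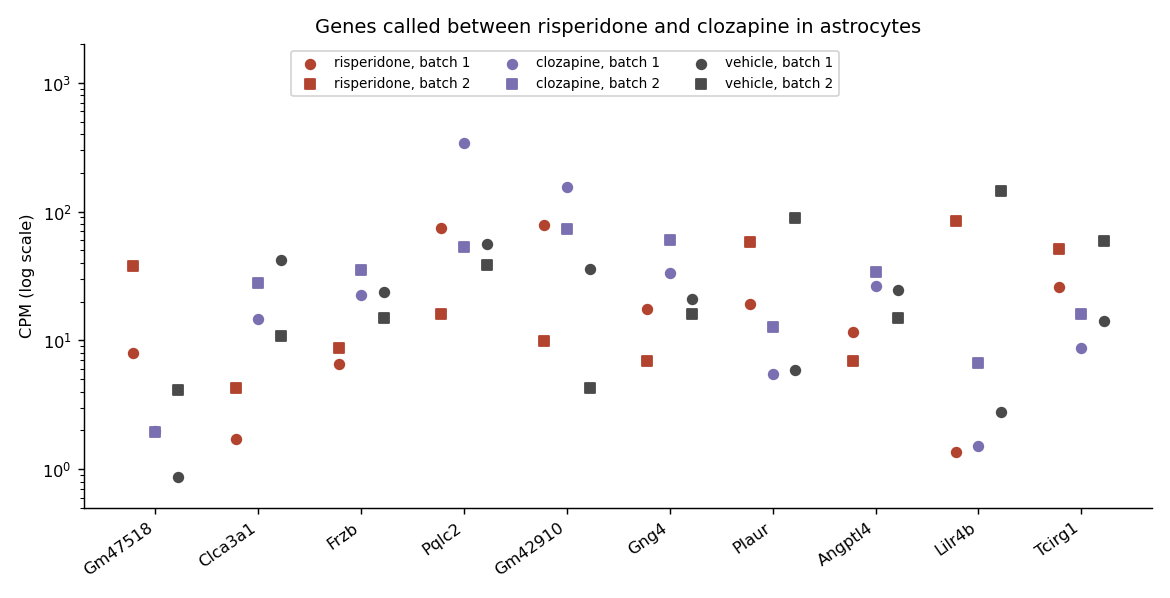
CPM (y axis, log scale) in the 6 astrocyte libraries of the 10 genes called between risperidone and clozapine, with risperidone left, clozapine in the middle and vehicle right for each gene, circles for batch 1 and squares for batch 2. Gm47518 is highest in both risperidone libraries at 8.00 and 37.9 CPM, and Clca3a1 is lowest in them at 1.72 and 4.25 CPM.

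The response in astrocytes was set against that in microglia and neurons of the same pools with an interaction test over all 18 libraries. Against microglia no gene of 37310 was called (0%, edgeR, with 1385 at an unadjusted p of 0.05 and 1 by DESeq2). The 1385 are fewer than that threshold would let through if no gene differed. Against neurons 2 were called (0.00536%). Those 2, Gm36264 and ENSMUSG00002076052.1, differed mainly through the neuron libraries. The fractions come from the same pools, and with the 6 pools as blocks, or with no replicate block, ENSMUSG00002076052.1 lost its call (adjusted p of 1 and 0.0652, in a range of 1.12e-50 to 1 over 13 alternatives) while Gm36264 kept it. Leaving out 1 library gave between 0 and 10 calls against microglia (10 without the microglia vehicle library of batch 2) and between 2 and 128 against neurons (128 without the neuron vehicle library of batch 1). Gm47518 stood at 1.26 and 0.269 CPM in neurons with risperidone and at 4.49 and 1.12 CPM in neurons with vehicle, a direction opposite to that in astrocytes, and the difference between the fractions was 4.99 (SE 0.92, adjusted p = 0.0827). Rn7s6 stood at 39.3 and 84.8 CPM in neurons with risperidone and at 151 and 63.0 CPM in neurons with vehicle, and its difference between the fractions was 2.59 (SE 0.57, adjusted p = 0.459). Clca3a1 was low in both other fractions, with 2.15 and 2.38 CPM in microglia with risperidone and 4.46 and 2.77 CPM in microglia with vehicle. Its differences between fractions, -2.42 against microglia and -2.83 against neurons, did not pass (adjusted p of 0.952 and 1). Hbb-bt stood at 638 and 152 CPM in microglia with risperidone and at 1102 and 342 CPM in microglia with vehicle, the reverse of astrocytes, with a difference between the fractions of 2.42 (SE 0.55, adjusted p = 0.952). Serpina3n stood at 4.31 and 7.86 CPM in microglia with risperidone and at 5.06 and 14.4 CPM in microglia with vehicle. None of the genes called in astrocytes passed either interaction test.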

How the data were processed

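RNA of immunopanned astrocytes, microglia and neurons was sequenced in 18 libraries, each from a pool of 5 frontal cortices, with random hexamer and oligo-dT priming and paired ends, per the labels' protocols. The authors deposited raw counts per gene for each library, made with featureCounts v2.0.8 on GRCm39 exons, per the file headers. The headers give counting of each mate, of reads over several genes and without strand. FastQC is named in the submitters' processing notes, and no source used here names an aligner. Counts of each mate separately are not independent, and depth ranged from 4714468 to 10651230 counts in the astrocyte libraries compared. A count of 0 allows between 0.369 and 0.523 CPM in those 4 libraries (3 counts per library on the scale of the printed CPM, counting error only). Symbols matched 52029 of 56953 IDs.

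The 6 astrocyte libraries were fitted with edgeR 4.0.16 (R 4.3.3, limma 3.58.1), TMM scaling, its expression filter, the quasi-likelihood test and the batch as a block, with Benjamini-Hochberg adjustment over all genes and a threshold of 0.05. Only 2 residual degrees of freedom remained. CPM are TMM-scaled, and within-batch differences use a prior count of 2. The labels' batch number pairs the pools: deviations from group means correlated at 0.529 for risperidone and vehicle, 0.268 for risperidone and clozapine and 0.197 for clozapine and vehicle. Interactions were fitted on all 18 libraries with batch within fraction. DESeq2 1.42.0, other scaling, filters, priors and left-out libraries were alternatives. Groups were 2 pools each. With the batch as a block, p-values of the astrocyte fit rest on the spread between pools left after the batch term. That spread was estimated over all 6 astrocyte libraries, clozapine included, and shared in part across genes.

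Tested on simulated data of 31022 genes, the test found 18 of every 100 genes given a 2-fold change and 88 of every 100 given a 4-fold change, with 3 false calls. The changed genes were drawn only from those with a mean of at least 8 CPM, with the same fold in both batches. Named genes were the 8 of smallest p per direction with the same sign in both batches, those past 1 in both batches at 10 CPM or more, 2 per gene list, 3 per direction for other comparisons, and receptors and markers always given. Other genes of the lists were added as background after their values were seen. The members and lists were chosen with earlier results of these data known. Values of some single genes are not reported here.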

Additional observations from a re-analysis of the deposited data

Results flagged for a closer look

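Gm36264 (chr13:9051468-9126487, GRCm39) differed between fractions in its response to risperidone, by the interaction test of astrocytes against neurons, at 8.022 on the log2 scale (SE 0.76, adjusted p = 8.207e-07). In neurons it stood at 3.53 and 4.04 CPM with risperidone, 30.4 and 3.36 CPM with clozapine and 1050 and 219 CPM with vehicle. In astrocytes it stood at 46.6 and 6.96 CPM with risperidone and at 13.8 and 5.21 CPM with vehicle. All 13 alternatives called it, with log2 differences of 6.84 to 9.88 and adjusted p up to 0.0136.

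ENSMUSG00002076052.1 (chr13:9159341-9159635) differed by the same test at 13.64 on the log2 scale (SE 1.93, adjusted p = 0.001773). In neurons it stood at 0.504 and 0.269 CPM with risperidone and at 19.8 and 5720 CPM with vehicle, so 1 vehicle library held nearly all of its counts. In astrocytes it stood at 32.4 and 0 CPM with risperidone and at 3.84 and 1.58 CPM with vehicle, and the count of 0 allows up to 0.51 CPM on the same scale. Its call was lost without the replicate block (adjusted p = 0.0652), with the 6 pools as blocks (adjusted p = 1), with DESeq2 (adjusted p = 0.0517) and without the astrocyte risperidone library of batch 1 (5.37, adjusted p = 1), in a range of 1.12e-50 to 1 over 13 alternatives. Without the neuron vehicle library of batch 2 the difference was 7.67, and without the neuron risperidone library of batch 2 it was 8.65. The cause of these values was not tested.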

How the results depend on the processing

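The batch number pairs the pools, and without the replicate block the counts of calls were 0 for risperidone against vehicle, 0 for risperidone against clozapine and 1 for astrocytes against neurons. Blocking on the 6 mouse pools also gave 1 for the last. Risperidone against vehicle gave 7 calls with no filter on low counts, 16 in the 4 libraries alone and 0 with all 18 libraries, and 0 to 164 when a library was left out. Risperidone against clozapine gave 18 at an adjusted p of 0.10, 17 with RLE scaling, 35 with no filter, 5 with DESeq2, 0 with all 18 libraries, and 7 to 662 with a library left out. Against microglia DESeq2 gave 1, no filter 6 and left-out libraries 0 to 10, and against neurons no filter gave 24 and left-out libraries 2 to 128. The 740 genes past 1 in both batches became 356 with a prior count of 5, 13 at 10 CPM or more and 2183 with no filter. The cause of these shifts was not tested.

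Hrh1 turned to -0.01429 in the 4 libraries alone and to -0.005616 with all 18. With a library left out, genes whose sign turned had log2 differences of -0.10 to 1.36 for C1qc, -0.05948 to 0.05689 for Hrh1, -0.36 to 0.85 for Gfap, -1.01 to 0.31 for Emp1, -0.07352 to 0.62 for Stx1a, -0.53 to 3.76 for Vmn1r55, -0.10 to 1.06 for Mbp, -0.01867 to 0.82 for Gjb6, -0.11 to 0.95 for Bhlhe40, -0.22 to 0.51 for Aqp4 and, against clozapine, -0.06764 to 3.585 for Lilr4b. Other settings for single genes kept direction and side of the threshold in 681 values, and 38 were no longer past it while 15 newly passed. With 2 pools a group and 4714468 counts in the shallowest library, differences near 2-fold were mostly beyond detection.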
